A study of Saccharomyces cerevisiae with 14 samples.

Results

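The oe EGD2 strain is Saccharomyces cerevisiae Y258, an S288C derivative, carrying a plasmid for overexpression of EGD2. It is 1 of 4 chaperone-enriched strains (ChES) of the study, which overexpress EGD2, SSC1, LHS1 or TCP1 from plasmids selected with URA3. RNASeq of total RNA gave 2 libraries of oe EGD2, and these were set against the 9 libraries of the other ChES, 3 each labelled oe SSC1, oe LHS1 and oe TCP1. The methods describe biological triplicates of every strain and a filter that removed outlier replicates, while the series holds 2 samples of oe EGD2. Whether that filter removed another oe EGD2 replicate is not stated, so the 2 may be selected libraries. All 11 libraries come from the same strain background and carry a URA3 plasmid, so the comparison is among overexpression strains. The empty vector control is not analysed here. Per the labels, the 4 strains grew exponentially in glucose medium without uracil, while the methods describe induction with galactose and cells after the diauxic shift. The members of the comparison are the 6592 of 7122 genes whose mean reached 5 normalized counts over the 11 libraries.

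EGD2 encodes the alpha chain of NAC, the nascent polypeptide-associated complex, which sits at the exit of the ribosomal tunnel and binds emerging chains. NAC is a heterodimer of this subunit with a beta subunit, encoded by EGD1 or by the less abundant BTT1. It takes part in sorting nascent chains between the signal recognition particle, mitochondria and the cytosolic folding machinery, and yeast cells can live without it. The proteins overexpressed in the other strains act elsewhere: Ssc1 is the Hsp70 of the mitochondrial matrix, Lhs1 an Hsp70 of the endoplasmic reticulum, and Tcp1 a subunit of the cytosolic chaperonin CCT.

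The strain's own transcript was highest in the oe EGD2 libraries. EGD2 (YHR193C, chrVIII:487712-488236, R64 assembly) stood at 24039 and 17746 normalized counts in oe EGD2 replicates 1 and 2, a mean of 20892 ± 4450 (SD, n = 2). Its level was 11258, 6127 and 6969 in libraries with the oe SSC1 label, at 8708, 14664 and 13122 in oe LHS1, and at 8359, 6824 and 16374 in oe TCP1. Both oe EGD2 libraries lay above all 9 others, with oe TCP1 replicate 3 the nearest. The log2 difference of oe EGD2 from the mean of the other 3 strains was 1.09 ± 0.41 (SE), a 2.13-fold higher level. In the limma fit across all genes the adjusted p was 0.71. An exact two-sided permutation test on the log2 EGD2 level alone gave p = 0.0364, the smallest that 2 libraries against 9 allow.

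EGD1, the beta subunit, did not follow. It stood at 5390 and 3331 in oe EGD2, inside the range of 2749 to 8774 in the other libraries, and its log2 difference was -0.29 ± 0.40 (SE, limma adjusted p = 0.79). BTT1, the other beta subunit, stood at 234 and 138 in oe EGD2 and at 117 to 210 elsewhere, with a log2 difference of 0.13 ± 0.29 (SE, limma adjusted p = 0.87).

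The ratio of the subunits, chosen after the values had been seen and so given with no test, was higher in oe EGD2. In the other 9 libraries the EGD2 to EGD1 ratio stayed between 1.58 and 2.23, a mean of 1.87 ± 0.19 (SD). The ratio was 4.46 in oe EGD2 replicate 1 and 5.33 in replicate 2, a mean of 4.89 ± 0.61 (SD, n = 2). The groups did not overlap, and the ratio was 2.61-fold higher in oe EGD2, a log2 difference of 1.39. Without the 3 libraries labelled oe SSC1 it was also 1.39.

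**Figure D1:**
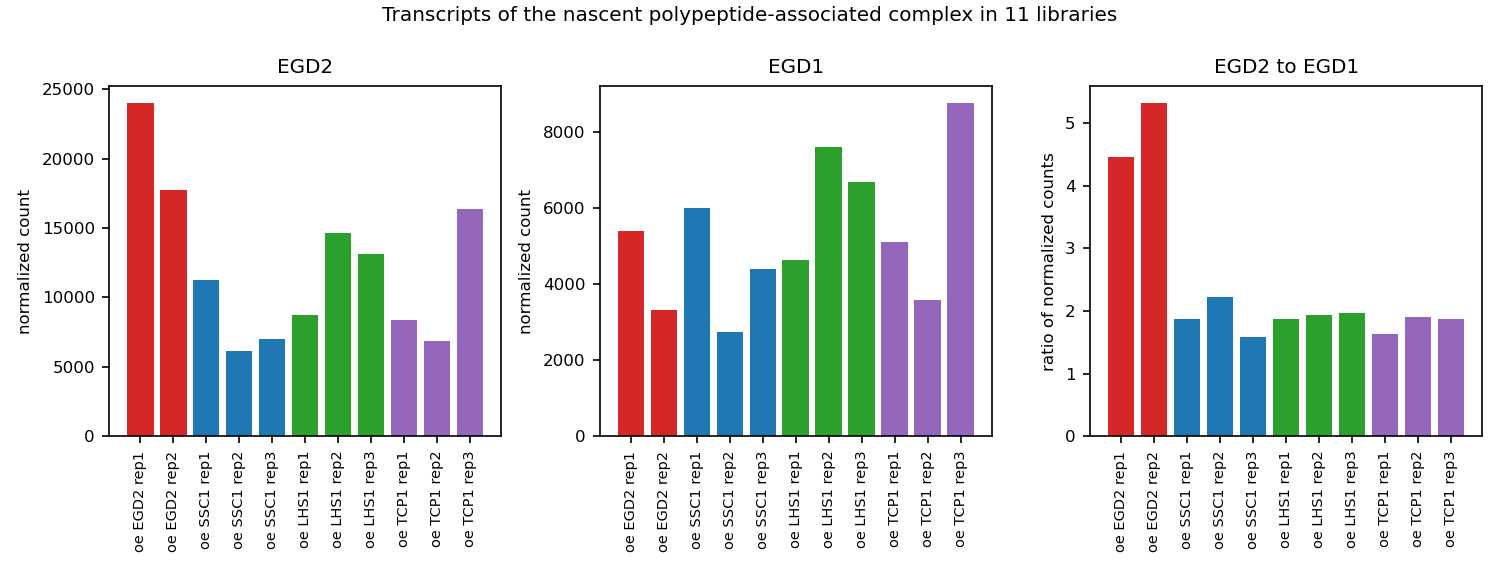
Normalized counts of EGD2 (left) and EGD1 (middle) and their ratio (right), 1 bar per library, coloured by strain. EGD2 is 24039 and 17746 in oe EGD2 against 6127 to 16374 elsewhere, EGD1 lies inside the range of the other libraries, and the ratio is 4.46 and 5.33 in oe EGD2 against 1.58 to 2.23.

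The transcripts overexpressed in the other strains gave the calls of the strain-by-strain comparisons. LHS1 stood at 2211 and 1344 in oe EGD2, at 1361 to 2094 under the oe SSC1 and oe TCP1 labels, and at 23647, 56679 and 60337 in oe LHS1. It was lower in oe EGD2 than in oe LHS1 by a log2 difference of -4.65 ± 0.43 (SE, limma adjusted p = 0.0046). TCP1 stood at 2122 and 1726 in oe EGD2 and at 22042, 47002 and 26906 in oe TCP1, a log2 difference of -3.98 ± 0.35 (SE, limma adjusted p = 0.0030). These were the only genes to pass in those comparisons, 1 of 6592 each (0.0152% lower, 0% higher).

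In transcript counts, the libraries labelled oe SSC1 went against their label. SSC1 was 30045, 82518 and 11336 there, against 24453 and 19700 in oe EGD2 and 14940 to 32390 in oe LHS1 and oe TCP1, so it was raised in 1 library of 3. HIP1, a histidine permease of the plasma membrane, was 31570, 46307 and 27237 in these libraries and 1564 to 3620 in every other one, with 1631 and 2022 in oe EGD2. HIP1 was the gene that passed in the comparison with these libraries, lower in oe EGD2 by a log2 difference of -4.23 ± 0.40 (SE, limma adjusted p = 0.0065, 1 of 6592 or 0.0152% lower and 0% higher). The paper reports Ssc1 protein enriched in its SSC1 strain by flow cytometry, and states that RNASeq also showed the overexpression of each chaperone. What plasmid the 3 libraries labelled oe SSC1 carry was not tested. Without them the comparison with the other strains had 106 genes higher and 151 lower at an unadjusted p under 0.05, against 112 and 82 with them, and 0 at the adjusted threshold in each direction. None of the 3 calls held in edgeR's quasi-likelihood test. Leaving out oe EGD2 replicate 2 lost all of them and leaving out replicate 1 lost those of HIP1 and TCP1.

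URA3, the plasmid marker, was among the most abundant transcripts, from 113922 to 367819 normalized counts over the 11 libraries. The transcripts that galactose induces were low in all of them. GAL1, the galactokinase, stood at 293 and 422 in oe EGD2 and at 237 to 836 elsewhere. GAL10, next to it, stood at 350 and 705 against 167 to 733.

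Across all genes, oe EGD2 did not differ from the other 3 strains at an adjusted p under 0.05. The limma fit called 0 genes higher and 0 lower of 6592 (0%), with 112 higher (1.7%) and 82 lower (1.24%) at an unadjusted p under 0.05. edgeR's quasi-likelihood test also called 0 in each direction, with 127 and 105 at an unadjusted p under 0.05. DESeq2 called 0 higher and 2 lower, TCP1 and HIP1, the genes raised in other strains. At this spread the test had limited reach. In simulated libraries of this design it recovered 92% of 8-fold and 10% of 2-fold differences. Each gene was drawn independently there, so shifts that the real libraries share across genes were not reproduced. The median SE of a log2 difference was 0.34. Leaving out 1 library at a time gave 0 calls in each direction, while the counts at an unadjusted p under 0.05 ran from 39 higher and 11 lower without oe EGD2 replicate 2 to 355 higher and 329 lower without oe TCP1 replicate 2.

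Libraries of 1 strain differed widely. The correlation between the oe EGD2 libraries over log2(normalized count + 1) was 0.964. Replicate 1 had higher correlations with oe LHS1 replicate 1 (0.986) and with replicate 1 of the libraries labelled oe SSC1 (0.983) than with its own partner. Replicate 2 had a correlation of 0.993 with oe TCP1 replicate 2 and 0.979 with replicate 3 of those labelled oe SSC1. These are correlations across genes, which are not independent replicates. On the first principal component, with 57.2% of the variance, oe EGD2 replicate 2 lay at -58.2 beside oe TCP1 replicate 2 at -51.4, while oe EGD2 replicate 1 lay at -24.6. The 3 other libraries numbered 1 lay next to it, between -10.7 and -2.75, and oe LHS1 replicates 2 and 3 lay at the far end at 61.9 and 61.2. Recovered depth was 18332088 and 16046097 reads for oe EGD2 and 10127206 to 20286329 over all libraries.

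**Figure D2:**
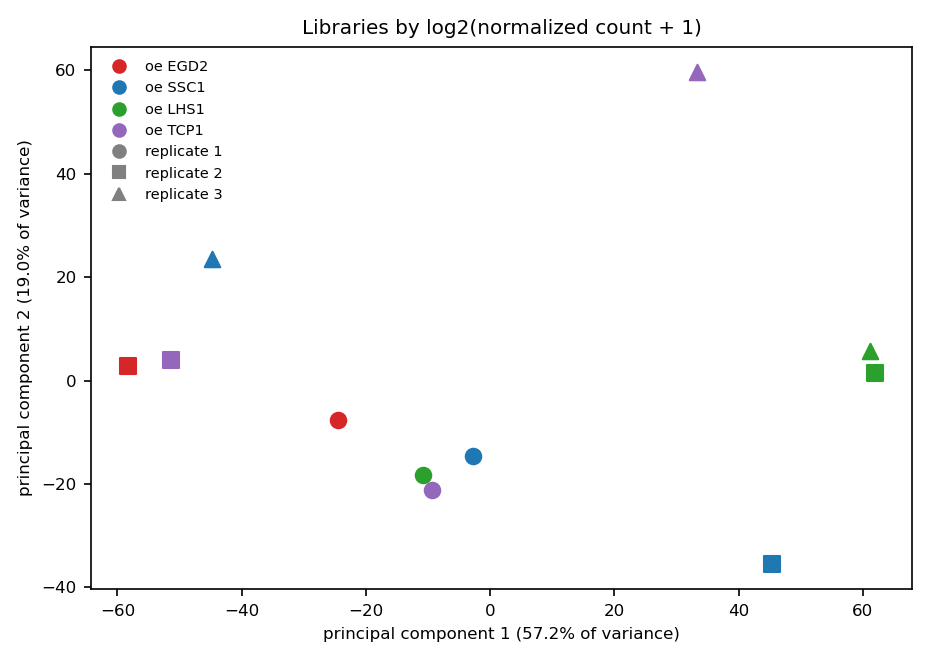
First and second principal components of log2(normalized count + 1) over 6592 genes, 1 point per library, with colour for strain and shape for replicate number. The 2 oe EGD2 libraries (-24.6 and -58.2 on the first component) lie on the low side of that component, each closer to libraries of other strains than to each other.

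Genes with both oe EGD2 libraries outside the range of the other 9 were counted. In 126 genes (1.91%) both oe EGD2 libraries lay above all 9 others, and in 158 genes (2.4%) both lay below. Among the 5918 genes with a mean of 50 or more these were 123 (2.08%) and 146 (2.47%). There are 55 ways to pick 2 of the 11 libraries. If all were interchangeable, each such pair would lie above the rest equally often on average, and likewise below. Shares of this order are therefore not by themselves a difference between strains. The nearest of the other libraries was oe TCP1 replicate 2 for 56 of the 126 and for 75 of the 158. The median distance to the nearest library of each gene was 0.07 on the log2 scale among genes above and -0.08 among genes below, so most of these gaps were narrow. None of these genes passed the adjusted threshold.

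PUT1, proline oxidase of the mitochondrion, which carries out the first step of proline breakdown, had the widest gap of the genes above. It stood at 1445 and 1321 in oe EGD2. The other libraries gave 484, 606 and 482 under the oe SSC1 label, 541, 173 and 170 in oe LHS1, and 577, 782 and 290 in oe TCP1. The lower oe EGD2 library was 0.76 above the highest other on the log2 scale. The log2 difference from the other strains was 1.77 ± 0.45 (SE), a 3.40-fold higher level with an unadjusted p of 0.0028 and an adjusted p of 0.71 in limma. Against libraries of the same replicate number it was 1.44 for replicate 1 and 1.60 for replicate 2. PUT2, the next enzyme of the pathway, stood at 2531 and 3365 against 1137 to 3588, inside the range.

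CAT5 came next. Its product, also named Coq7, is a hydroxylase of coenzyme Q synthesis, and the gene lies at chrXV:559030-559731 on the minus strand. It stood at 895 and 853 in oe EGD2, at 399, 328 and 619 under the oe SSC1 label, at 421, 443 and 466 in oe LHS1, and at 462, 575 and 410 in oe TCP1. The log2 difference was 0.95 ± 0.24 (SE, limma unadjusted p = 0.0027), and it was 1.07 and 0.96 within replicate numbers 1 and 2.

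Coenzyme Q carries electrons between the complexes of the respiratory chain. Of its 12 genes measured, chosen as a family after CAT5 had been seen, 10 had a positive log2 difference. In 4 of them, CAT5 included, both oe EGD2 libraries lay above the other 9, against 1.91% of all genes. Choosing the family by CAT5 raises that share. The family's median log2 difference was 0.44, against -0.01 for all genes, of which 49.2% were positive. COQ3, a methyltransferase, stood at 818 and 805 against 438 to 706. COQ9, a lipid-binding partner of Coq7, stood at 1627 and 1609 against 650 to 1530. COQ6, a monooxygenase, stood at 1873 and 1715 against 1004 to 1582. COQ8, a member of the kinase-like family that the pathway needs and 1 of the 2 with a negative difference, stood at 830 and 710 against 745 to 1120. The median level of the family, CAT5 included, was 0.42 and 0.34 above each gene's mean in oe EGD2. It was -0.41 to 0.13 in the other libraries, so the groups did not overlap.

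Some other genes of respiration were among the 126, picked from them after their values were seen. HAP4, the limiting subunit of the transcriptional activator of respiratory genes, stood at 6416 and 8949 against 2562 to 6336. ACO1, mitochondrial aconitase, stood at 7053 and 9142 against 4722 to 6737. COA1, an assembly factor of cytochrome oxidase, stood at 492 and 469 against 212 to 426, and COX14, another, at 695 and 697 against 405 to 656. CYC3, which attaches heme to cytochrome c, stood at 2298 and 2255 against 1135 to 2091. SDH5, an assembly factor of succinate dehydrogenase, stood at 801 and 724 against 328 to 691. Among the nuclear-encoded subunits of the respiratory chain and ATP synthase, 35 of 40 had a positive difference with a median of 0.29. In 1 of these 40 both oe EGD2 libraries lay above the range, a share near the 1.91% of all genes. Of the mitochondrially encoded transcripts 6 of 8 had a negative difference, with a median of -0.27 that became 0.14 without oe EGD2 replicate 1. Of the 69 mitochondrial ribosomal proteins 1 lay above, and of the 17 genes of mitochondrial import 0. For the nuclear-encoded respiratory chain and ATP synthase list the median was 0.30 and 0.32 within replicate numbers 1 and 2. QCR8, a subunit of complex III with the smallest p of the list, stood at 3890 and 5838 against 1604 to 5313.

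The remaining genes with wide gaps had varied roles. TLD1, a lipid droplet protein, stood at 1266 and 1586 in oe EGD2 against 498 to 931. AYR1, a reductase of lipid synthesis that is also found on lipid droplets, stood at 3259 and 4161 against 891 to 2716. NNF1, a kinetochore protein of the MIND complex, stood at 1180 and 744 against 361 to 619 and had the smallest p of the genes above (log2 difference 1.01 ± 0.25 SE, limma unadjusted p = 0.0023). HFL1, a membrane protein of the vacuole, stood at 1276 and 1174 against 587 to 957. ERF2, a subunit of the palmitoyltransferase of Ras proteins, stood at 785 and 911 against 356 to 674. CRS5, a copper metallothionein, stood at 1047 and 1048 against 172 to 936.

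WHI2, a negative regulator of TORC1 that acts with the phosphatases Psr1 and Psr2, stood at 4142 and 3696 against 2151 to 3008. PSR2, chosen after WHI2 had been seen, stood at 2917 and 2652 against 1379 to 2236. TIP1, a mannoprotein of the cell wall, stood at 18816 and 14911 against 5003 to 13130. FRT1, a membrane protein of the endoplasmic reticulum, varied little among the 9 other libraries, from 533 to 688, and stood at 894 and 883 in oe EGD2. ERS1 stood at 773 and 711 against 202 to 542, SPO73, a gene of sporulation, at 704 and 705 against 235 to 541, and IRC23 at 970 and 1475 against 474 to 930. The uncharacterized YIR016W stood at 4606 and 4933 against 753 to 3678, YER084W at 173 and 248 against 47.1 to 139, and YBR126W-B, which had no match in the annotation used, at 306 and 286 against 43.4 to 231.

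Among genes with both oe EGD2 libraries below the others, GUA1 had the widest gap of those whose mean reached 50 and whose role is known. It encodes GMP synthase, the last step of guanine nucleotide synthesis. It stood at 3270 and 2978 in oe EGD2, at 5203, 5401 and 4565 under the oe SSC1 label, at 4825, 8835 and 9191 in oe LHS1, and at 4875, 4274 and 14830 in oe TCP1. The log2 difference was -1.01 ± 0.44 (SE, limma unadjusted p = 0.044). The oe EGD2 libraries were close to each other and the others spread more than 3-fold.

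**Figure D3:**
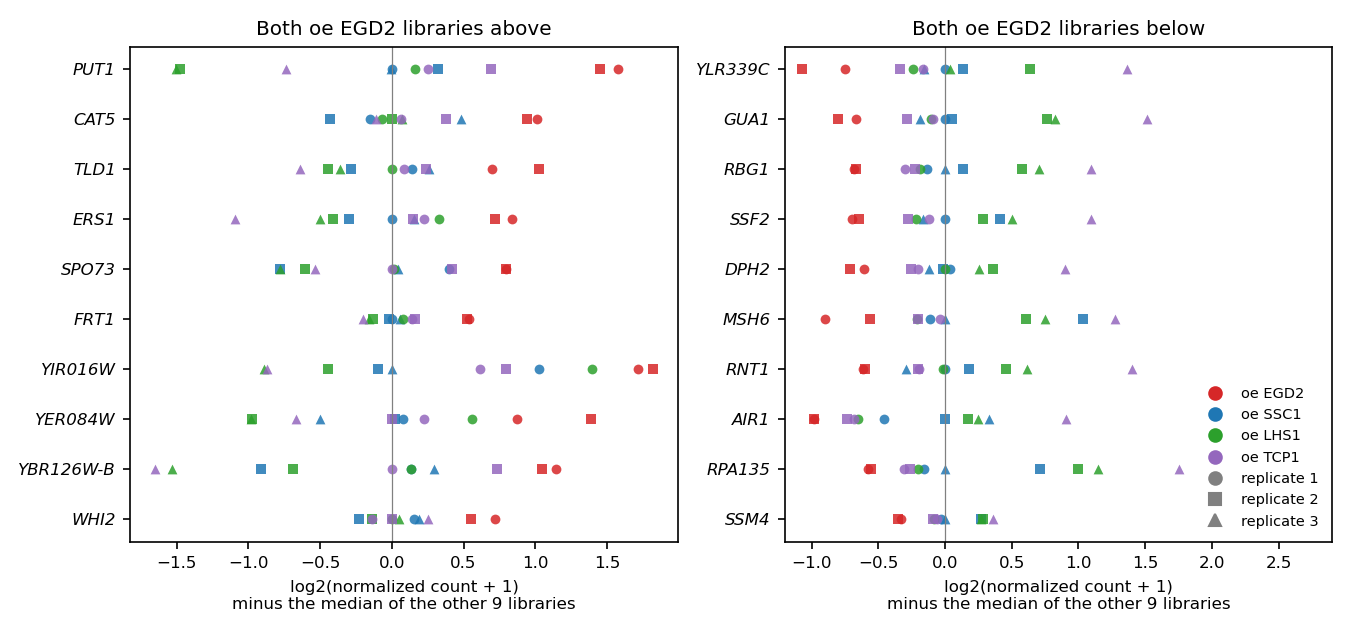
The 10 genes in each direction, among those whose mean reached 50, with the widest gap between the oe EGD2 libraries (red) and the nearest of the other 9, as log2(normalized count + 1) minus the median of those 9. Left, both oe EGD2 libraries above, led by PUT1. Right, both below, where oe TCP1 replicate 3 is the highest library for every gene drawn.

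Several of these genes serve translation and ribosome production. RBG1, a GTPase found on translating ribosomes, stood at 661 and 666 in oe EGD2 against 864 to 2269. SSF2, which acts in maturation of the large ribosomal subunit, stood at 539 and 560 against 722 to 1867. RNT1, the RNase III that cuts ribosomal RNA precursors, stood at 466 and 473 against 585 to 1894. RPA135, a large subunit of RNA polymerase I, stood at 2371 and 2402 against 2852 to 11907, and RPA190, the largest subunit, at 1836 and 2034 against 2216 to 7470. AIR1, a subunit of the nuclear TRAMP complex, stood at 359 and 359 against 426 to 1334. SSM4, the ubiquitin ligase Doa10 of the endoplasmic reticulum, stood at 1867 and 1844 against 2214 to 3013. YLR339C, which had no match in the annotation used, stood at 29.0 and 23.1 against 39.0 to 129, and MKC7, a yapsin protease that overlapped, at 627 and 450 against 552 to 1571.

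DPH2 led a small pathway. Its product takes part in the first step of diphthamide synthesis, the modified histidine of elongation factor 2. DPH2 stood at 945 and 879 in oe EGD2 against 1207 to 2692. DPH5, the methyltransferase, stood at 1247 and 1334 against 1442 to 2839, and DPH6, which adds the amide, at 536 and 551 against 585 to 1831. JJJ3, the fourth member with both libraries below the range, stood at 131 and 117 against 151 to 540. All 7 genes of the pathway measured, chosen after DPH2 had been seen, had a negative difference, with a median of -0.48. Over all genes 49.2% were positive and 2.4% had both libraries below. DPH2 is counted in the family, which raises its share below the range. The other 3 overlapped with the 9 libraries. The median level of the family was -0.44 and -0.35 in oe EGD2 and -0.17 to 0.74 in the others.

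Genes of DNA replication made up the largest group below the range among the lists and families examined. In budding yeast many of them are transcribed together at the start of S phase by MBF, a factor that binds the MCB element with the letters ACGCGT. CDC9, the DNA ligase that joins Okazaki fragments, stood at 515 and 622 in oe EGD2. It was at 898, 1541 and 1036 under the oe SSC1 label, at 819, 1137 and 1288 in oe LHS1, and at 953, 729 and 1411 in oe TCP1. It had the smallest p of any gene lower in oe EGD2 apart from TCP1, HIP1 and LHS1, with a log2 difference of -0.90 ± 0.29 (SE, limma unadjusted p = 0.012), and was -0.79 and -0.80 within replicate numbers 1 and 2. CDC45, part of the replicative helicase, stood at 248 and 219 against 260 to 831, a log2 difference of -1.18 ± 0.41 (SE, limma unadjusted p = 0.017).

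Subunits of the replicative polymerases and their partners also had both oe EGD2 libraries below the other 9. POL31, a subunit of DNA polymerase delta, stood at 887 and 910 against 1071 to 1886, and POL3, its catalytic subunit, at 591 and 541 against 677 to 1295. RFA1, the large subunit of the single-strand binding protein RPA, stood at 883 and 853 against 946 to 1817. RLF2, a subunit of chromatin assembly factor 1, stood at 402 and 563 against 640 to 1433, and MRC1, which travels with the fork and relays the replication checkpoint, at 431 and 527 against 582 to 1152. PRI2, a primase subunit, TOF1, ELG1, DPB2, ASF1, RFA2, CTF4, RFC5 and ORC2 completed the set. MSH6, a mismatch repair protein, stood at 495 and 627 against 800 to 2237. RAD5, a helicase of damage tolerance, stood at 415 and 732 against 697 to 1182 and overlapped.

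Over 53 genes of the replication fork and its assembly, a family chosen after these values had been seen, 50 had a negative difference and 3 a positive one, against 49.2% positive over all genes. In 16 of the 53 both oe EGD2 libraries lay below the range (2.4% of all genes), and in 0 both lay above (1.91% of all genes). The 16 include genes that prompted the family, such as CDC9 and CDC45, which raises that share. The median log2 difference was -0.47, and it was -0.50 without oe EGD2 replicate 1 and -0.40 without replicate 2. Against libraries of the same number it was -0.23 for replicate 1 and -0.52 for replicate 2. The median level of the family was -0.33 and -0.42 in oe EGD2, and oe TCP1 replicate 2, at -0.31, was next to them. The list of cyclins, S phase genes and histones, which mixes phases of the cycle, had a median of -0.12 with 24 of 40 negative. That median became 0.16 without oe EGD2 replicate 2.

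The MCB letters split the family. Of the 53 genes, 27 had ACGCGT, which reads the same on both strands, in the 500 bases before the start codon. Over all genes with such a window, 325 of 5983 (5.43%) held it. The 27 genes had a median log2 difference of -0.70, with both oe EGD2 libraries below the range in 14, and the 26 genes without it had a median of -0.31 with 2 below. Over all tested genes with a window, both oe EGD2 libraries lay below in 32 of 319 genes with the letters and in 115 of 5505 without, or 2.09%. The median difference was -0.13 with them and 0.02 without. The 319 include the 27 family genes, and the 32 include the 14 of these below the range, so this split is not separate from the family. The windows below show the letters for the replication genes given above, as 28 bases on the coding strand from the R64 genome. The match nearest the start codon is in capitals, and other matches may lie further upstream. In RLF2 another match lies in the same window, in lower case.
CDC9 (chrIV:167363-167390, minus strand): ttaacgcgaaaACGCGTgaaagtgaaat
CDC45 (chrXII:346075-346102, minus strand): catatcatctaACGCGTtttaagaaatt
POL31 (chrX:449084-449111, plus strand): cgattaatcagACGCGTctgattaattt
RFA1 (chrI:158738-158765, minus strand): ggcgacaaaagACGCGTgaactaacata
POL3 (chrIV:276695-276722, plus strand): tttttcgtattACGCGTaactttttatt
MRC1 (chrIII:22205-22232, minus strand): gaatgcgtaaaACGCGTttgcttcaata
RLF2 (chrXVI:594243-594270, plus strand): cacgcgttcggACGCGTgaaaggcttca
PRI2 (chrXI:353317-353344, plus strand): gatttgaaattACGCGTcgcggggaatc
The letters in capitals lay 125 bases before the start codon in CDC9, 150 in CDC45, 107 in POL31, 135 in RFA1, 166 in POL3, 115 in MRC1, 222 in RLF2 and 165 in PRI2. A match is a description of the sequence, and binding was not measured.

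**Figure D4:**
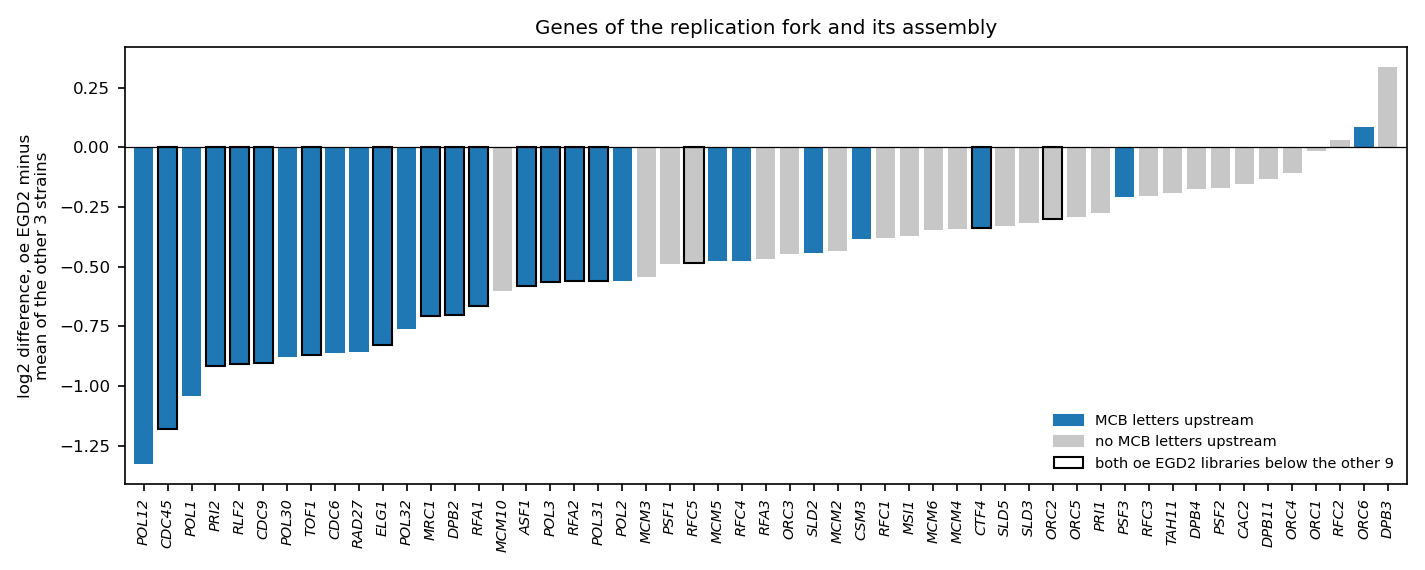
Log2 difference of oe EGD2 from the mean of the other 3 strains for 53 genes of the replication fork and its assembly, in order of size. Blue bars have the MCB letters upstream (27 genes, median -0.70), grey bars do not (26 genes, median -0.31), and a black outline marks the 16 genes with both oe EGD2 libraries below the other 9.

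The iron regulon was high in both oe EGD2 libraries, with its uptake genes highest in replicate 1. These genes are switched on by Aft1 and Aft2 when iron is scarce. Of 27 genes, 26 had a positive difference, with a median of 0.74. Within replicate numbers 1 and 2 the median was 0.81 and 0.61. The median level was 0.63 and 0.60 in oe EGD2 and -0.72 to 0.64 in the others, where oe TCP1 replicate 2 was as high. FET3, the multicopper ferroxidase of high-affinity uptake, stood at 27703 and 8101 in oe EGD2 against 4468 to 10813. FTR1, the permease that works with it, stood at 18409 and 3032 against 2510 to 4237. TIS11, which destabilizes messages of iron-using proteins and is also named CTH2, stood at 2647 and 1334 against 271 to 1534, and ARN2, a siderophore transporter, at 3080 and 1858 against 744 to 2322. FET3 and FTR1 thus differed widely between the oe EGD2 libraries, and in 0 of 27 genes did both libraries lie above the range.

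The Aft core letters TGCACCC, on either strand, were found in the 500 bases before 19 of the 27 genes of this list and before 139 of 5983 genes (2.32%). Over all tested genes with a window, the median difference was 0.19 for the 138 with the letters and 0.01 for the 5686 without. The windows of the genes given above follow, in the same layout, with the Aft letters or their complement GGGTGCA in capitals.
FET3 (chrXIII:388560-388587, plus strand): atcttcaaaagTGCACCCatttgcaggt
FTR1 (chrV:461899-461926, minus strand): gcgtagatgaaTGCACCCgatttctaag
TIS11 (chrXII:416815-416842, minus strand): cacatgcagttGGGTGCAttgtgccagc
ARN2 (chrVIII:10644-10671, minus strand): aatcagaaaatGGGTGCAgttcttagtt

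Zinc and copper genes were high in replicate 1 and not in replicate 2 of oe EGD2. The list's median level was 1.26 there and -0.44 in replicate 2, against -0.54 to 0.24 in the other libraries. ZPS1, a cell wall protein induced by lack of zinc, stood at 14303 and 717 in oe EGD2, and oe LHS1 replicate 1 stood at 11389 while the rest were at 446 to 3770. ADH4 stood at 6894 and 994 with the same pair of high libraries, since oe LHS1 replicate 1 was at 5263. The list's median difference of 0.55 became -0.39 without oe EGD2 replicate 1. BIO4 and BIO3, genes of biotin synthesis, stood at 2951 and 1545 and at 5596 and 2806, against 455 to 1620 and 629 to 3345.

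Genes for sulfate assimilation and methionine had a median difference of 0.68, with 22 of 24 positive. SUL2, a sulfate permease, stood at 1995 and 2862 against 528 to 2750, and MET32, a regulator of the pathway, at 695 and 586 against 317 to 576. The list's level was 0.68 and 0.55 in oe EGD2, and replicate 3 of the libraries labelled oe SSC1 was higher.

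Genes for the machinery that meets nascent chains beside NAC mostly had negative differences, with no limma call for any member in this comparison. DESeq2 called TCP1 lower. All 8 ribosome-associated chaperones and cochaperones had a negative difference, with a median of -0.38. SSB1, an Hsp70 of the ribosome, stood at 3524 and 2664 in oe EGD2 against 3032 to 15218. SSZ1, of the ribosome-associated complex, stood at 4048 and 3053 against 3575 to 9859, and its partner ZUO1 at 6908 and 4014 against 4948 to 16848. All 9 genes of the signal recognition particle and its receptor had a negative difference with a median of -0.21, and SRP68 stood at 2446 and 1764 against 2062 to 4765. All 15 genes of CCT and prefoldin were negative, with a median of -0.37. TCP1 is among the 15, but it is the gene overexpressed in oe TCP1, so its sign was set in advance. CCT5 stood at 2365 and 1890 against 2285 to 4020, and CCT8 at 2334 and 1568 against 2010 to 4167.

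Of the genes of N-terminal acetylation and methionine removal, 10 of 11 were negative, with a median of -0.26. MDM20, a subunit of the NatB acetyltransferase, was the member with the smallest p. It stood at 732 and 587 in oe EGD2, at 1071, 1563 and 942 under the oe SSC1 label, at 1087, 1218 and 1461 in oe LHS1, and at 993, 736 and 1204 in oe TCP1, so that oe TCP1 replicate 2 was level with the higher oe EGD2 library. Its log2 difference was -0.77 ± 0.25 (SE, limma unadjusted p = 0.013). Of the 18 translocon and related genes of the endoplasmic reticulum, 13 were negative with a median of -0.13. Without oe EGD2 replicate 2 that median was 0.083. SND1, which targets proteins to that membrane independently of the signal recognition particle, was an exception at 5057 and 4982 against 2627 to 4923. OM14, a mitochondrial outer membrane protein that binds NAC, stood at 5535 and 6535, where the others ran from 680 to 5920 and overlapped. Of the 17 genes of mitochondrial import it was the 1 with a positive difference, and the list's median was -0.26.

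The median level of the N-terminal acetylation list was -0.27 and -0.38 in oe EGD2 and at least -0.18 in the other 9. In 3 of the other lists the oe EGD2 libraries were not alike. The levels of replicate 1 were inside the range of the other 9 for ribosome-associated chaperones (-0.13), the signal recognition particle (-0.09) and CCT with prefoldin (-0.04). Replicate 2 was below that range in each, at -0.56, -0.46 and -0.52. The medians against libraries of the same number were -0.12, 0.10 and -0.04 for replicate 1 and -0.72, -0.39 and -0.46 for replicate 2.

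Ribosome production was low and post-diauxic transcripts were high in the oe EGD2 libraries, as in some libraries of other strains. All 54 genes of ribosome biogenesis had a negative difference, with a median of -0.98, against 49.2% positive over all genes. In 3 of the 54 both oe EGD2 libraries were below the range, against 2.4% of all genes. ENP1, needed for processing of the small subunit, stood at 846 and 606 against 818 to 4347. UTP8 stood at 959 and 657 against 924 to 3707. All 20 subunits of RNA polymerases I and III were negative with a median of -0.70, and 135 of 137 cytosolic ribosomal proteins with a median of -0.45. Of the translation factors, 27 of 30 were negative with a median of -0.49. NIP1, a subunit of initiation factor eIF3, stood at 3020 and 1983 against 2270 to 8455, and ANB1, the hypoxic form of eIF5A, went the other way at 1270 and 803 against 214 to 1267.

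The PAC letters GATGAG, read on either strand, are common upstream of genes of ribosome production. They were found before 51 of the 54 biogenesis genes and before 1692 of 5983 genes (28.3%). Of the 158 genes with both oe EGD2 libraries below the range, 147 had a window and 75 of them (51.0%) held these letters, while 22 of 115 (19.1%) did so among the 126 above. The windows of RPA135 and ENP1 are shown as examples, with the match nearest the start codon, to these letters or their complement CTCATC, in capitals. In RPA135 another match overlaps the one in capitals.
RPA135 (chrXVI:581284-581311, minus strand): tagagactcatCTCATCtcttaattatt
ENP1 (chrII:714559-714586, minus strand): ttttaaaaatcGATGAGctcccacttct

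Post-diauxic and stationary phase genes had a median log2 difference of 1.93, with 28 of 30 positive, the largest of the 48 lists. The level was 1.15 in oe EGD2 replicate 1 and 1.99 in replicate 2. Replicate 2 stood beside oe TCP1 replicate 2 at 1.90, and oe TCP1 replicate 3 was lowest at -2.81. The median difference was 0.29 against libraries numbered 1 and 2.19 against libraries numbered 2. SPG1, a gene of stationary phase survival, stood at 615 and 2596 in oe EGD2 against 44.8 to 2384, and OM45, an outer membrane protein of mitochondria, at 14447 and 18723 against 741 to 16359.

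Storage carbohydrate genes, which make and use trehalose and glycogen, were all positive (17 of 17, median 1.49). GLC3, the glycogen branching enzyme, was the 1 member with both libraries above the range, at 20991 and 39799 against 501 to 18938. UGP1, which makes UDP-glucose, stood at 24934 and 40938 against 2936 to 33078. Here too the median was 0.14 against libraries numbered 1 and 1.74 against those numbered 2. Among the stress proteins HSP12, a membrane protein of stationary phase, stood at 36780 and 69217 against 1155 to 70964, and HSP26, a small heat shock protein, at 21298 and 80305 against 2045 to 71805.

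**Figure D5:**
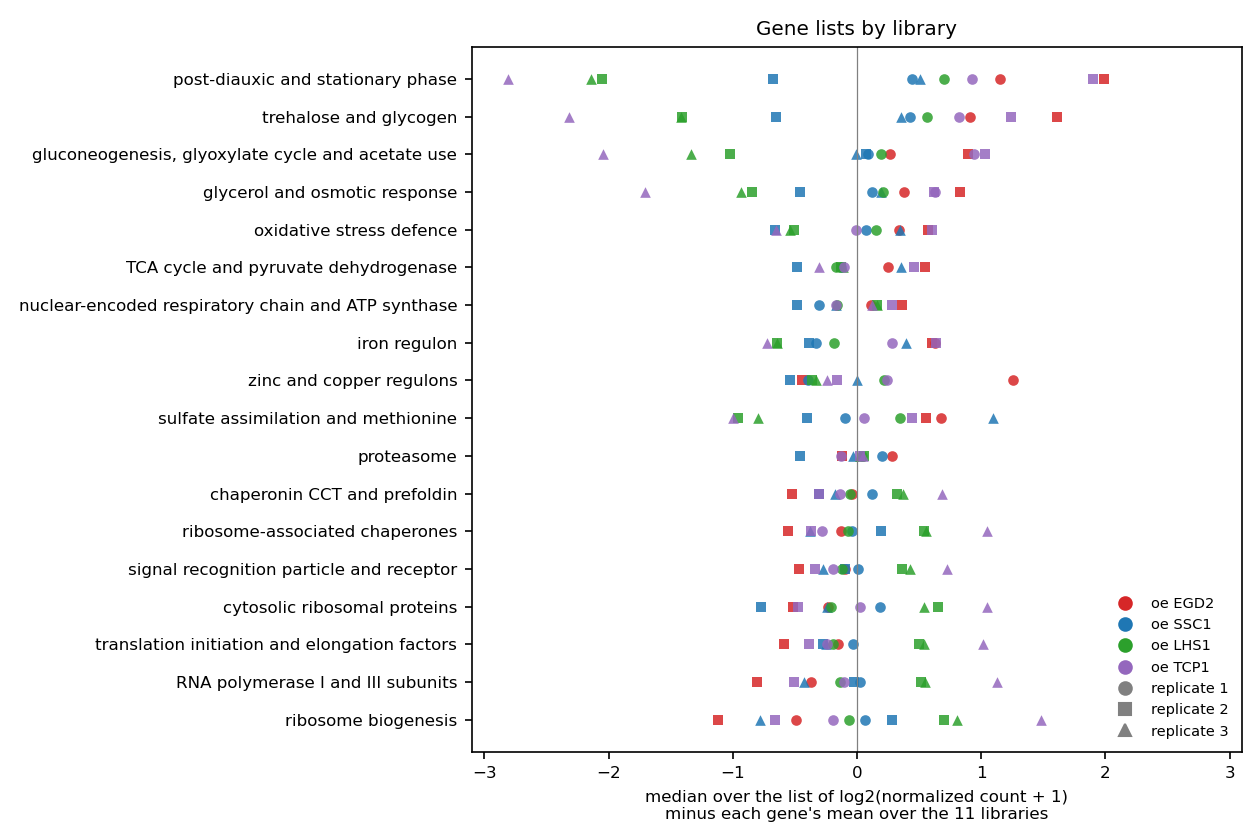
Median level of 18 gene lists in each library, as log2(normalized count + 1) minus each gene's mean over the 11 libraries, with colour for strain and shape for replicate number. The oe EGD2 libraries (red) lie on the high side for post-diauxic genes (1.15 and 1.99) and on the low side for ribosome biogenesis (-0.49 and -1.12), near oe TCP1 replicate 2, and oe TCP1 replicate 3 lies at the opposite end.

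Carbon metabolism lists leaned the same way. Genes of gluconeogenesis, the glyoxylate cycle and acetate use had a median of 0.87 (17 of 18 positive), the TCA cycle with pyruvate dehydrogenase 0.52 (20 of 21), glycolysis and fermentation 0.41 (15 of 21), peroxisomal fatty acid oxidation 0.44 (14 of 16) and oxidative stress defence 0.54 (24 of 25). TDH1, a glyceraldehyde-3-phosphate dehydrogenase, stood at 22657 and 69442 against 1579 to 50204, and ENO1, an enolase, at 50313 and 61772 against 6356 to 52316. GPX1, a glutathione peroxidase, stood at 773 and 2431 against 124 to 2021. For gluconeogenesis and for fatty acid oxidation the sign was negative against libraries numbered 1 (-0.20 and -0.17) and positive against those numbered 2 (0.87 and 0.35).

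The levels of these lists differed widely within the other strains too. Ribosome biogenesis ranged from -0.78 to 1.48 over the 9 other libraries and post-diauxic genes from -2.81 to 1.90. The part of growth state in the differences given above was not tested, and with 2 libraries it cannot be told apart from overexpression of EGD2. Against libraries of the same replicate number, 252 genes (3.82%) were over 0.5 and 520 (7.89%) under -0.5 on the log2 scale in both numbers, and 48 and 50 of these lay outside the range of all 9.

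Set against each strain by itself, oe EGD2 had the most genes at an unadjusted p under 0.05 in the comparison with oe LHS1, with 227 higher (3.44%) and 248 lower (3.76%). There were 69 higher (1.05%) and 53 lower (0.804%) against the libraries labelled oe SSC1, and 31 higher (0.47%) and 17 lower (0.258%) against oe TCP1. The 3 comparisons share the oe EGD2 libraries. PUT1 was higher by 1.41, 2.45 and 1.44 on the log2 scale against the libraries labelled oe SSC1, against oe LHS1 and against oe TCP1 (SE 0.53 each), CAT5 by 1.01, 0.98 and 0.87 (SE 0.28 each), and EGD2 by 1.40, 0.80 and 1.08 (SE 0.48 each). CDC9 was at -0.99, -0.91 and -0.81 (SE 0.34 each).

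Other lists were near the median of all genes or differed between the oe EGD2 libraries. Mitochondrial ribosomal proteins had a median of -0.04, amino acid synthesis -0.00057, and the cell wall list 0.09. The proteasome list had 27 of 32 positive but a median of 0.09, which became -0.11 without oe EGD2 replicate 1. Ergosterol synthesis had a median of -0.26 that became 0.34 without oe EGD2 replicate 2, hypoxic genes 0.21 that became -0.52 without replicate 1, and phosphate genes 0.04 that became 0.78 without replicate 1. ERG5, a desaturase of ergosterol synthesis, stood at 3661 and 773 in oe EGD2 against 1667 to 8440.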

How the data were processed

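Single-end reads of 50 bases were aligned by the authors with STAR 2.3.0e (sacCer3) and assigned to genes, ignoring strand, with HTSeq 0.6.0. They removed outlier replicates by principal component analysis and divided by DESeq2 size factors. The deposited table thus holds a normalized signal, the DESeq2-normalized count per gene. Overlapping and antisense genes cannot be told apart in it. Each column is a whole multiple of 1 step, and 100% of values gave whole reads (tolerance 0.01). Of its lines, 4 were emptied and are not reported here.

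Values were compared as log2(normalized count + 1) by limma-trend (limma 3.58.1, R 4.3.3) where the mean reached 5 normalized counts, with 1 factor of 4 strains. The contrast was oe EGD2 minus the average of the 3 other strains, and Benjamini-Hochberg adjusted p under 0.05 over all genes tested was the threshold. Fold changes are on this log2 scale and understate changes of low genes. edgeR 4.0.16 and DESeq2 1.42.0 on recovered reads, other pseudocounts, filters, scaling, covariates and left-out libraries were alternatives. In data simulated for this design over 6570 genes, each drawn independently, 4 of 106 limma calls were false. Shifts shared across genes were not simulated, so this rate may not hold for the real libraries. The replicates are separate samples by their labels, and p-values measure the spread between these samples.

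Genes named are the NAC and overexpressed genes, URA3, any past the threshold, the 10 smallest p-values and the 10 widest gaps in each direction (mean of at least 50), and up to 4 members per list with the smallest p. Others were chosen after their values were seen. The comparison, the 48 lists and the families were chosen with earlier results of these data known. Upstream windows of 500 bases and coordinates come from the RefSeq copy of R64, the assembly of sacCer3, to which 6045 of 7122 genes matched by systematic name.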

Additional observations from a re-analysis of the deposited data

How the results depend on the processing

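The comparison of oe EGD2 with the other 3 strains kept 0 genes higher and 0 lower under every alternative except 2. DESeq2 called 2 lower, and the first residual component as a covariate, which is computed from the same libraries, gave 14 higher and 12 lower. That covariate also gave 326 higher and 314 lower against oe LHS1. edgeR called 0 lower against each strain. Without 1 library the count lower was 0 to 1 against each strain. The cause was not tested. The replicate block gave 0 lower against oe LHS1 and changed no other call. Against the other 3 strains it left 54 genes higher and 51 lower at a limma unadjusted p under 0.05, where the main fit had 112 and 82. The oe EGD2 strain has no library numbered 3, while each of the other strains has 1. The numbers share no stated litter, batch or day, and of 15 same-numbered pairs 8 had r over 0.1 (range -0.58 to 0.64), so the libraries were not treated as paired. By their deviations 8 of 11 libraries correlated best with their own number, a hint from the data. The log2 difference of the EGD2 to EGD1 ratio was 1.39 without the libraries labelled oe SSC1 and 1.26 to 1.51 without 1 library. The sign turned within the range over left-out libraries for ADH4 (-0.55 to 2.25), BTT1 (-0.25 to 0.52), EGD1 (-0.64 to 0.053), ERG5 (-2.05 to 0.19), FTR1 (-0.13 to 2.47), GAL1 (-0.36 to 0.16), GAL10 (-0.22 to 0.79), URA3 (-0.50 to 0.95) and ZPS1 (-0.52 to 3.8) (log2 differences). GAL1 also turned to 0.073 without the 3 libraries labelled oe SSC1. Of 576 list medians 566 moved by less than the spread, but a move within the spread can still change the sign. Over left-out libraries the sign turned for some lists. Among them were proteasome (-0.11 to 0.29), ER translocon (-0.32 to 0.083), the cell cycle list (-0.46 to 0.16) and purine synthesis (-0.27 to 0.68). At 10127206 to 20286329 reads per library, genes with a mean under 5 were below what the test used.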
